A study of Mus musculus with 3 samples.

Results

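Igf1, its receptor gene Igf1r and the 7 Igf-binding protein genes Igfbp1 to Igfbp7 were followed in mouse embryonic fibroblasts (MEFs). The 9 genes were taken by symbol from the 21782 genes of the count table. RNA-seq was carried out on 3 clones of WT MEFs, with 1 library per clone. The cells were taken from E12.5 embryos, grown in DMEM with 20% FBS and collected while cycling asynchronously, and polyA+ RNA was sequenced. All 3 libraries are of 1 genotype and 1 condition, so the question that can be asked is how strongly each gene was expressed and how far the clones differed. The medium contained serum, a source of Igf proteins that RNA-seq does not measure.

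IGF1 is a secreted growth factor that acts through the receptor tyrosine kinase IGF1R, from which signals pass to the PI3K, AKT and mTOR branch and to the RAS and MAPK branch. The binding proteins IGFBP1 to IGFBP6 hold IGF1 and the related IGF2 outside the cell with high affinity, and either keep the ligand from its receptor or prolong its life. IGFBP7 is a more distant relative that binds IGFs weakly and is found in the extracellular matrix. In the body, the liver is the main source of circulating IGF1 and of IGFBP1, whereas fibroblasts and other mesenchymal cells make several of the other binding proteins for local use.

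The binding proteins share a cysteine-rich N-terminal domain, and the sequences below show its signature in the genes measured here. In the longest annotated coding sequences, the residues glycine, cysteine, any, cysteine, cysteine, any, any and cysteine occurred in this order in IGFBP1 to IGFBP5, and not in IGFBP6 or IGFBP7. The 30 coding nucleotides from the glycine codon are given 5′ to 3′ on the coding strand of GRCm38, with the 4 cysteine codons in capitals. They begin at residue 58 of IGFBP1, 67 of IGFBP2, 68 of IGFBP3, 52 of IGFBP4 and 51 of IGFBP5.
Igfbp1, plus strand of chr11:7198130-7198159: ggcTGTggcTGCTGCccgacaTGTgccttg
Igfbp2, plus strand of chr1:72824778-72824807: ggcTGCggcTGCTGCtccgtgTGCgcacgg
Igfbp3, minus strand of chr11:7213560-7213589: ggcTGCggcTGCTGCctgactTGCgcgctg
Igfbp4, plus strand of chr11:99041650-99041679: ggcTGCggtTGTTGCgccactTGCgccctg
Igfbp5, minus strand of chr1:72873960-72873989: ggcTGTggcTGCTGCatgactTGCgccctg
The 5 stretches differed from each other at 3 to 10 of the 30 bases, and the closest were those of Igfbp3 and Igfbp5. Over the whole proteins, identity in global alignment ranged from 31.2% (IGFBP1 and IGFBP6) to 46.2% (IGFBP3 and IGFBP5) among the 15 pairs of IGFBP1 to IGFBP6. It was 23.9% to 32.3% in the 6 pairs with IGFBP7. The residues CWCV, part of the C-terminal domain, were found in IGFBP1 to IGFBP6 and not in IGFBP7. The integrin-binding tripeptide RGD was found in IGFBP1 and IGFBP2 among the binding proteins. Despite the kinship of the proteins, no 50-nt stretch of one of the 9 longest coding transcripts occurred in another of them. Stretches shared with other genes made up 2.99% of the Igfbp4 transcript and 2.43% of the Igfbp7 transcript, the latter all with Polr2b, which overlaps 85 bp of Igfbp7 exons on the other strand. The remaining 7 transcripts shared none.

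The libraries held between 22594316 and 25261357 counts. Of 10 fibroblast markers, all were at 1 count per 1000000 (CPM) or more in every clone, and their summed level was 67717 to 92919 CPM. Dcn and Lum were low at 7.73 and 2.03 CPM on average. The fibroblast markers were split between clones, with 7 highest in clone 1 and 3 in clone 2. Those highest in clone 2 were Pdgfra (11.8, 27.3 and 16.8 CPM in clones 1, 2 and 3), Thy1 (893, 1387 and 874 CPM) and Vim. Clone 2 stood apart in the markers of macrophages, cells that are known to produce Igf1. All 14 macrophage markers in the table were highest there, none was at 0 in any clone, and they summed to 422 CPM in clone 1, 2005 in clone 2 and 354 in clone 3. The 6 proliferation markers were highest in clone 2 and lowest in clone 1, with sums of 368, 723 and 609 CPM in clones 1, 2 and 3. The cell-cycle inhibitor genes Cdkn1a, Cdkn2a and Cdkn2b were highest in clone 1. Of 6 liver markers none reached 10 counts in any clone, and Alb, Ttr, Serpina1a and Hnf4a had none. In bulk RNA, a change in the number of cells of a type and a change in RNA per cell cannot be told apart.

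MEFs transcribed 8 of the 9 genes, and the exception was Igfbp1. The counts were set against library sizes scaled by the TMM method, and clones were compared in a chi-square test that covers counting noise only. Of the 8 genes tested, 7 differed between clones at an adjusted p-value under 0.05, the exception being Igf1r. This count has to be read against the background, since 62.5% of the 12218 genes that reached 10 counts in each of the clones also differed. Larger differences were rarer. Igf1, Igfbp2, Igfbp4 and Igfbp6 differed with a range of at least 1 on the log2(CPM + 1) scale, which is at least 2-fold, as did 4.49% of all tested genes. The same 4 genes varied more than genes of similar level in edgeR's goodness-of-fit test (Benjamini-Hochberg adjusted p-value under 0.05), which called 2.10% of tested genes. These calls rest on all 3 libraries. With clone 2 left out, 1 of the 8 genes passed the goodness-of-fit test (Igfbp2), with clone 1 left out 3 (Igf1, Igfbp4 and Igfbp6), and with clone 3 left out 0. Over all tested genes, the same 3 omissions left 0.0403%, 1.47% and 0.909% called. Without clone 3, 4 of the 8 had an unadjusted goodness-of-fit p-value under 0.05 (5.91% of all tested genes) and 6 passed the chi-square test (53.0%).

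**Figure D1:**
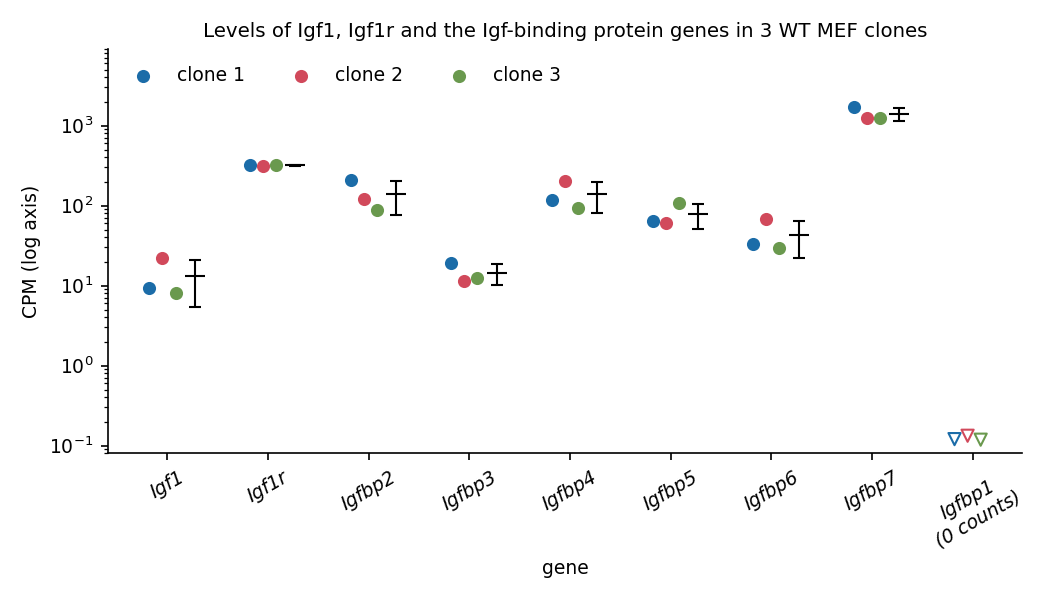
Level of each gene in CPM on a log axis, with 1 point per clone and the mean and SD of the 3 clones as black bars. Igfbp7 lies highest, at 1235 to 1687 CPM, Igf1 and Igfbp3 lie lowest among the transcribed genes, and the open triangles for Igfbp1 mark the upper limit of 3 counts.

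Igf1, the ligand, was transcribed at a low level and was the most variable of the 9 genes. It lies on the plus strand of chromosome 10, from 87858265 to 87937042 of GRCm38. Clones 1, 2 and 3 gave 230, 495 and 207 counts of Igf1, or 9.26, 22.0 and 8.20 CPM, with a mean of 13.1 ± 7.65 CPM (SD, n = 3 clones). Clone 2 was high, and clones 1 and 3 were close to each other. Clone 2 exceeded clone 3 by 2.68-fold (95% interval of counting error, 2.27 to 3.17), and the adjusted p-value was 8.98e-46 in the chi-square test and 0.0202 in edgeR's goodness-of-fit test. The coefficient of variation of Igf1 was 58.3%, and 2.52% of the tested genes had a higher one. Between clones 1 and 3 alone the levels of 9.26 and 8.21 CPM gave an adjusted p-value of 0.317 in the chi-square test, where 45.3% of genes were called. The high clone was also the clone highest in the macrophage markers, which were found in all 3 clones. The macrophage markers were 4.04 to 7.02 times higher in clone 2 than in the mean of clones 1 and 3 (median 5.16 over 14 genes), while Igf1 was 2.52 times higher. Clone 2 was highest too in the 6 proliferation markers and in 3 of 10 fibroblast markers, the other 7 being highest in clone 1. Among those 3 was Pdgfra, by 2.32-fold over the lowest clone. The part of macrophages in the Igf1 level was not tested, and neither was its relation to the other markers.

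Igf1r, the receptor, was nearly the same in the 3 clones. The gene spans 67952827 to 68233668 on the plus strand of chromosome 7, and clones 1, 2 and 3 gave 7985, 7035 and 8136 counts. The levels were 321, 312 and 322 CPM, with a mean of 319 ± 5.65 CPM (SD, n = 3 clones) and a coefficient of variation of 1.77%. A higher coefficient was found in 97.7% of tested genes, the median being 11.3%. The ratio of the highest to the lowest clone was 1.03 (95% interval of counting error, 0.9999 to 1.07) and the adjusted p-value was 0.136 in the chi-square test. With library sizes set to total counts the adjusted p-value in the chi-square test became 0.0066, at a range of 0.08 on the log2(CPM + 1) scale. Igf1r also ranked high in level, with 472 genes above it in mean CPM.

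**Figure D2:**
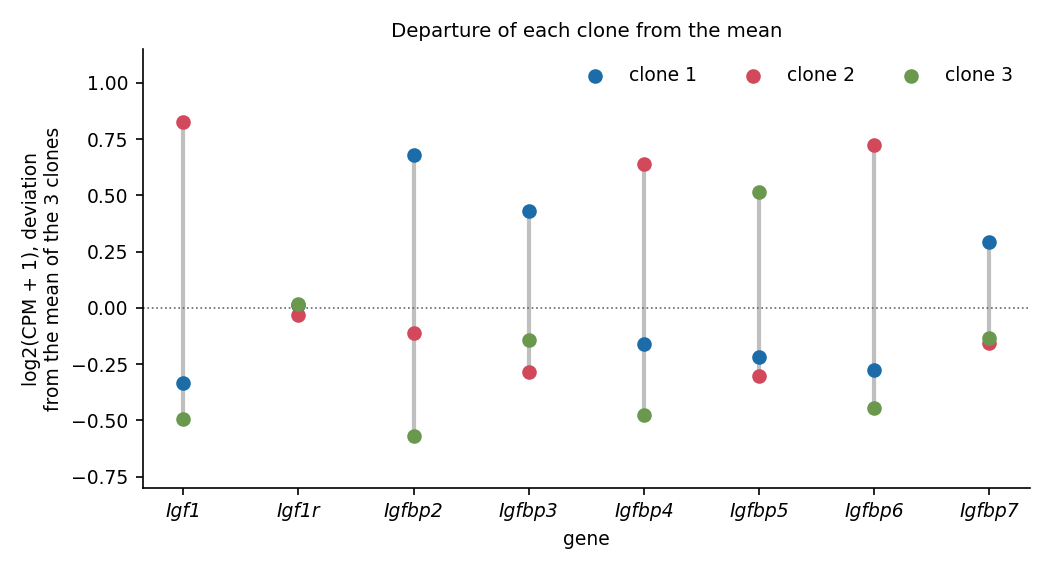
Deviation of log2(CPM + 1) in each clone from the mean of the 3 clones, 1 point per clone, with a grey line over the range of each gene. Clone 2 is high for Igf1, Igfbp4 and Igfbp6, clone 1 for Igfbp2, Igfbp3 and Igfbp7, and clone 3 for Igfbp5, while the points of Igf1r fall within 0.05 of each other.

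The binding protein genes did not move together, and each clone was the highest for some of them. Among genes called in the chi-square test, clone 1 was highest for Igfbp2, Igfbp3 and Igfbp7 (23.8% of all tested genes were called and highest there). Clone 2 was highest for Igf1, Igfbp4 and Igfbp6 (23.5% of tested genes), and clone 3 for Igfbp5 (15.3%).

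Igfbp4, which holds IGFs until proteases such as pappalysin release them, and Igfbp6, which prefers IGF2, shared the pattern of Igf1. Igfbp4 (chromosome 11, 99041244 to 99054392, plus strand) had 2899, 4599 and 2367 counts in clones 1, 2 and 3, or 117, 204 and 93.7 CPM (138 ± 58.2, SD, n = 3). Igfbp6 (chromosome 15, 102144362 to 102149511, plus strand) had 823, 1517 and 743 counts, or 33.1, 67.3 and 29.4 CPM (43.3 ± 20.9, SD, n = 3). In both genes clone 2 stood well above clones 1 and 3, which lay close together. The ratio of the highest to the lowest clone was 2.18 for Igfbp4 and 2.29 for Igfbp6, and edgeR's goodness-of-fit test gave adjusted p-values of 0.00674 and 0.0129. With 1 dispersion for all genes in place of one that follows the level, these became 0.222 and 0.0935. Clone 2 exceeded the mean of the other clones by 1.94-fold for Igfbp4 and 2.15-fold for Igfbp6, less than the 4.04-fold of the least raised macrophage marker. The part of macrophages in these levels was not tested either, and neither was their relation to the other markers highest in clone 2. Between clones 1 and 3 alone, Igfbp4 differed by 1.24-fold (adjusted p = 4.55e-14, chi-square test) and Igfbp6 by 1.12-fold (adjusted p = 0.0459, chi-square test). That test called 45.3% of all tested genes between these clones, and neither gene passed edgeR's goodness-of-fit test there.

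Igfbp2, an abundant binding protein of fetal tissues, was highest in clone 1. The gene lies on the plus strand of chromosome 1 from 72824503 to 72852474. Its counts in clones 1, 2 and 3 were 5212, 2727 and 2213, or 210, 121 and 87.6 CPM, with a mean of 139 ± 63.1 CPM (SD, n = 3). The clones were all apart, with clone 1 over clone 3 by 2.39-fold (95% interval of counting error, 2.28 to 2.52). The adjusted p-value was 0.00137 in edgeR's goodness-of-fit test with a dispersion that follows the level and 0.117 with 1 dispersion for all genes. All 3 pairs of clones differed for Igfbp2 in the chi-square test. Clone 1 was also the clone lowest in proliferation markers and highest in the cell-cycle inhibitor genes and in 7 of 10 fibroblast markers. The match did not extend to the other clones, since the inhibitor genes were lowest in clone 2 and Igfbp2 in clone 3. The relation of these markers to Igfbp2 was not tested.

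Igfbp5, a matrix-associated binding protein, lies beside Igfbp2 and went a different way. It occupies 72857932 to 72874884 on the minus strand, 5457 bp from the end of Igfbp2, and the genes point toward each other. Counts were 1607, 1374 and 2733 in clones 1, 2 and 3, or 64.7, 60.9 and 108 CPM, with a mean of 77.9 ± 26.3 CPM (SD, n = 3). Clone 3 was high, and the difference between clones 1 and 2, 1.06-fold, did not pass the test (adjusted p = 0.165, chi-square test, where 53.0% of genes were called between these clones). The CPM ratio of Igfbp2 to Igfbp5 stood at 3.24, 1.98 and 0.810 in clones 1, 2 and 3, and so differed by up to 4.01-fold within 1 gene pair. The flanking genes differed from both. Rpl37a, a ribosomal protein gene on the Igfbp2 side, had 7347, 7725 and 7592 counts, and Tnp1, a spermatid gene on the Igfbp5 side, had 0 in every clone.

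Igfbp3, the main carrier of IGFs in serum, and Igfbp1, a liver-derived and insulin-regulated binding protein, form the other adjacent pair of which one was transcribed and the other was not. Igfbp1 lies at 7197782 to 7202546 on the plus strand of chromosome 11, and Igfbp3 at 7206086 to 7213923 on the minus strand, 3539 bp apart. Igfbp1 had 0 counts in each clone, which allows up to 0.121, 0.133 and 0.119 CPM at the depths of clones 1, 2 and 3. Igfbp3 had 479, 256 and 319 counts, or 19.3, 11.4 and 12.6 CPM (14.4 ± 4.26, SD, n = 3). Clone 1 was the highest for Igfbp3, by 1.70-fold over clone 2, and the difference between clones 2 and 3 did not pass the test (adjusted p = 0.362, chi-square test, where 31.7% of genes were called). The gene passed the chi-square test over the 3 clones (adjusted p = 4.06e-13) and not edgeR's goodness-of-fit test (adjusted p = 0.999994). On either side of the pair, the gene model Gm11985 had 0 counts in every clone and Tns3, which codes for a focal adhesion protein, had 4533, 5368 and 5225.

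The promoters of this silent and this transcribed neighbour differed in their content of CG dinucleotides, the sites of DNA methylation. They are printed from RefSeq (GRCm38.p6), 240 bases from 250 to 11 bases before the annotated start, 5′ to 3′ on the coding strand and with CG in capitals.
Igfbp1, plus strand of chr11:7197537-7197776: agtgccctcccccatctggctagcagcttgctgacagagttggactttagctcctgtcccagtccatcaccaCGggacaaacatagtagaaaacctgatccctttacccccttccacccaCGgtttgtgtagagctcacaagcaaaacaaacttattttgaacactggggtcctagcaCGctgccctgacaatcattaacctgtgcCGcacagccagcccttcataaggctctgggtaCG
Igfbp3, minus strand of chr11:7213934-7214173: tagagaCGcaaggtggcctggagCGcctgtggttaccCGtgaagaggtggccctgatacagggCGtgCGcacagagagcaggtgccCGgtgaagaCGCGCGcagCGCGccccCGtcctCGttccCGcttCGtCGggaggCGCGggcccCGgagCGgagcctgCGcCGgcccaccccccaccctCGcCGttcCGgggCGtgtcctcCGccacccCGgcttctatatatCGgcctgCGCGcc
The Igfbp1 window held 5 CG and the Igfbp3 window 31, and over the 32851 promoter windows of that length the median was 5, with quartiles of 2 and 15. Igfbp1 was the only silent gene of the 9, so the number of CG could not be compared between silent and transcribed genes as groups. Among the transcribed genes, the window of Igf1 also held 5, that of Igfbp6 held 7 and that of Igfbp5 held 10. The Igf1 window, at 87860861 to 87861100, lies within the span of the gene given above. Igf1r and Igfbp7 were CG-rich, with 40 and 25, followed by Igfbp4 with 20, while Igfbp2 has 2 annotated windows with 13 and 9. All 9 genes had an entry. The letters TATAAA, searched on both strands, were found in the windows of Igfbp4 and Igfbp6, and in 12.1% of all windows. DNA methylation and factor binding were not analysed here.

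Igfbp7 was the most abundant of the 9 genes in CPM, and clone 1 exceeded the other clones. The gene covers 77349240 to 77408041 on the minus strand of chromosome 5. In clones 1, 2 and 3 the gene had 41922, 27840 and 31706 counts, or 1687, 1235 and 1255 CPM, with a mean of 1392 ± 256 CPM (SD, n = 3). Clone 1 was high, 1.37-fold above clone 2, and the ratio of clone 2 to clone 3 was 0.984 (adjusted p = 0.111, chi-square test). Only 71 genes of the table had a higher mean CPM. The coefficient of variation of 18.4% lay above the 11.3% of the median gene, and edgeR's goodness-of-fit test gave an adjusted p-value of 0.999994.

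**Figure D3:**
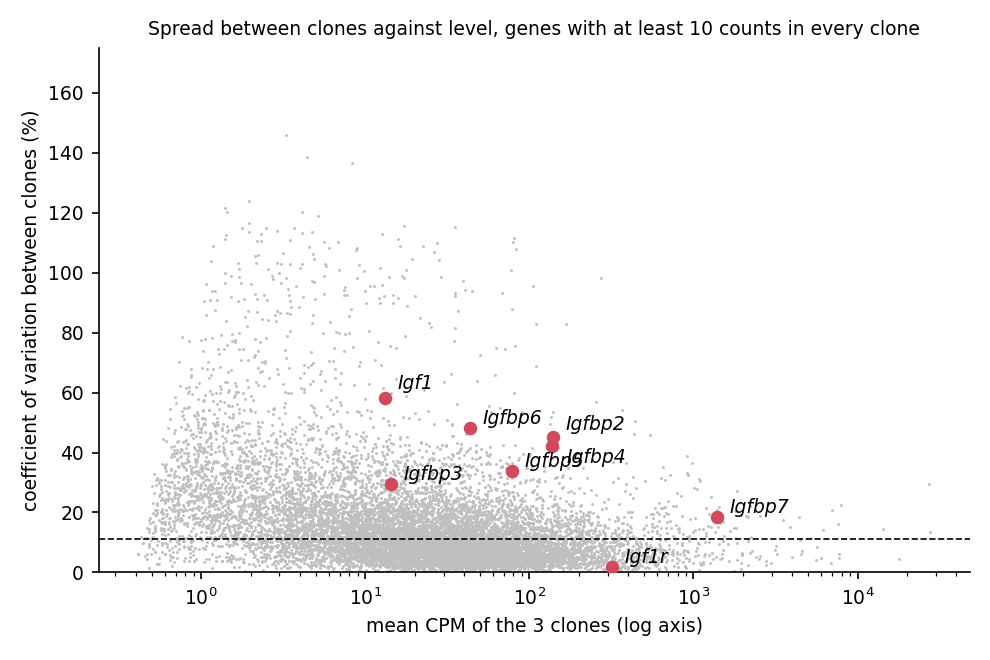
Coefficient of variation between the 3 clones against mean CPM on a log axis, for the 12218 tested genes (grey) and the 8 transcribed genes of the Igf group (red), with the median of all genes as a dashed line. Igf1, Igfbp2, Igfbp4 and Igfbp6 lie in the upper fringe at their level, and Igf1r lies near the bottom.

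Levels of different genes were compared per kb of annotated exon, since longer transcripts give more reads. On this scale Igfbp7 reached 1152 ± 211 CPM per kb (SD, n = 3), followed by Igfbp2 with 75.5 ± 34.2, Igfbp6 with 38.9 ± 18.8, Igfbp4 with 31.3 ± 13.2, Igf1r with 19.0 ± 0.337, Igfbp5 with 13.0 ± 4.38, Igfbp3 with 4.61 ± 1.36 and Igf1 with 1.33 ± 0.773. The ranges over the 3 clones overlapped between Igfbp2 and Igfbp6 and between Igfbp6 and Igfbp4, and the other neighbours in the order were separate. When each gene was measured per kb of the annotated transcript holding its longest coding sequence, the order was the same. Igfbp2 and Igfbp6 were then separate, Igf1r overlapped with Igfbp4, and Igf1, at 5.73 ± 3.34 CPM per kb, overlapped with Igfbp3 at 5.96 ± 1.76. The exons of all Igf1 transcripts together cover 9904 bp, whereas the annotated transcript holding its longest coding sequence has 2292 nt.

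The mixture of binding protein transcripts was dominated by Igfbp7 in every clone. Its share of the summed level per kb of Igfbp1 to Igfbp7 came to 88.2%, 84.6% and 89.9% in clones 1, 2 and 3 (87.6% ± 2.69, SD, n = 3). In plain counts, without division by length, its share was 79.2% (95% exact binomial interval, 78.8 to 79.5), 72.7% (72.2 to 73.1) and 79.1% (78.7 to 79.5), with intervals that cover counting error only. The high-affinity binding proteins on their own had a mixture that depended on the clone. Of the summed level per kb of Igfbp1 to Igfbp6, Igfbp2 held 60.8% in clone 1, 35.2% in clone 2 and 40.5% in clone 3. Igfbp6 held 15.95%, 32.5% and 22.6%, and Igfbp4 held 14.2%, 24.8% and 18.1%. Igfbp5 held 5.77% and 5.46% in clones 1 and 2 and 15.4% in clone 3. In clone 1 Igfbp2 exceeded the other high-affinity genes together, and in clone 3 Igfbp5 had its largest share. In clone 2, Igfbp2 and Igfbp6 stood at 65.5 and 60.5 CPM per kb of exon, and at 92.5 and 60.5 per kb of the annotated transcript holding the longest coding sequence. Igfbp3 stayed between 1.95% and 3.44%.

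**Figure D4:**
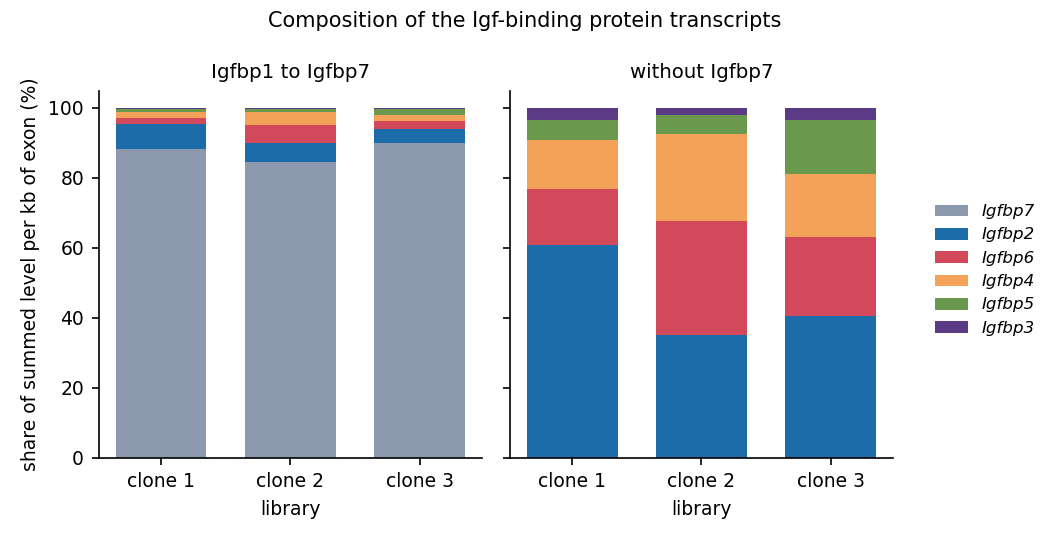
Share of each binding protein gene in the summed level per kb of exon, in percent, as stacked bars with 1 bar per clone, for Igfbp1 to Igfbp7 (left) and without Igfbp7 (right). Igfbp7 fills 84.6% to 89.9% of the left bars, and Igfbp2 holds 60.8% in clone 1 and 35.2% in clone 2 in the right bars. Igfbp1 has no counts and does not appear.

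The remaining ligand and receptors put these levels in proportion. Igf2, the fetal growth factor, had 655, 715 and 983 CPM in clones 1, 2 and 3. Per kb of exon it exceeded Igf1 by 122-fold in clone 1, 56.3-fold in clone 2 and 208-fold in clone 3, and per kb of the annotated transcript holding the longest coding sequence by 34.4-fold, 15.8-fold and 58.2-fold. By either length, Igf2 transcripts were more abundant than those of Igf1 in every clone, and the gap was smallest in clone 2. Igf2r, which takes up IGF2 for degradation and does not signal as a kinase, had 822, 510 and 775 CPM, and per kb of exon 4.62, 2.95 and 4.34 times the level of Igf1r. Insr, the insulin receptor, had 66.5, 54.1 and 61.1 CPM, and Igf1r exceeded it per kb by 3.95-fold, 4.72-fold and 4.32-fold. Insrr, the insulin receptor-related receptor, had 2, 1 and 1 counts. The summed level per kb of Igfbp1 to Igfbp6 was 1.62 and 1.46 times that of Igf1 and Igf2 together in clones 1 and 2 and 0.679 times in clone 3. In clone 3, Igf2 was at its highest and Igfbp2 at its lowest.

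Around the binding proteins, most partners and proteases that could be tested also differed between clones, as did 62.5% of all tested genes. Of 5 partners and relatives, 3 could be tested and 2 were called in the chi-square test, a share near that of all genes. The other, Tmem219, had 9.74, 9.93 and 9.30 CPM and was not called (adjusted p = 0.805, chi-square test). Lrp1, an endocytic receptor that binds IGFBP3, had 2754, 1964 and 1873 CPM, and Htra1, a serine protease, had 432, 404 and 299 CPM. Igfals, which codes for the subunit that stabilises serum complexes of IGFs, had 0 counts in every clone, and Igfbpl1 had 3, 4 and 4. Igfbp3, with which that subunit forms complexes, was transcribed, as given above. All 6 testable genes of 7 binding protein proteases and their inhibitors were called (62.5% of all genes), and 4 were highest in clone 2 (23.5% of all genes were called and highest there). Timp1, a metalloproteinase inhibitor, had 519, 868 and 519 CPM, and Adam9, a metalloproteinase, had 459, 666 and 518 CPM. Stc1, a secreted glycoprotein whose family inhibits pappalysins, had 114, 245 and 215 counts (4.59, 10.9 and 8.51 CPM), a range of 1.09 on the log2(CPM + 1) scale. Stc2, its relative and a known inhibitor of pappalysin-A, was low at 6.62 ± 0.970 CPM (SD, n = 3). Pappa2, which cleaves IGFBP3 and IGFBP5, had 39, 7 and 31 counts and was too low in clone 2 to be tested. Pappa, which cleaves IGFBP4 and was chosen for mention after its values were seen, had 203, 113 and 161 CPM and was lowest in clone 2, where Igfbp4 was highest.

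No tested gene of the wider pathway had a range as large as those of Igf1, Igfbp2, Igfbp4 and Igfbp6. Over the 60 listed genes of the wider pathway, 59 were in the table, 53 could be tested and 42 were called in the chi-square test (79.2% of those tested, against 62.5% of all genes). Stc1 was the single one of them with a range of at least 1 on the log2(CPM + 1) scale. In edgeR's goodness-of-fit test 0 of the 53 passed with Benjamini-Hochberg adjustment, and 3 had an unadjusted p-value under 0.05, as did 6.64% of all tested genes. The median range on the log2(CPM + 1) scale was 0.24 over these genes and 0.28 over all genes, and it was 0.97 over the 8 transcribed members of the Igf group. Among the called genes, 14 were highest in clone 1, 8 in clone 2 and 20 in clone 3, where over all tested genes the counts were 2904, 2867 and 1871. Within the pathway, the adaptors and the kinase branches downstream of the receptors gave 38 testable genes, of which 28 were called and 0 had a range of at least 1. Their median range was 0.22, and the largest was 0.65 for the adaptor gene Grb14, named after its value was seen.

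Of the receptor adaptors, 10 of 12 could be tested and 7 were called in the chi-square test. This count and those of the kinase branches below have to be read against the 62.5% of all tested genes that were called. Grb10, an imprinted adaptor that dampens signalling of IGF1R and the insulin receptor, had 615, 593 and 677 CPM, and the phosphatase gene Ptpn11 had 207, 202 and 231 CPM. Irs3 had 2, 3 and 2 counts and Irs4 had 0, 1 and 0, so these docking proteins were at or below the detection limit of 3 counts. In the PI3K, AKT and mTOR branch, 20 of 20 could be tested and 15 were called, with Akt1 at 451, 433 and 466 CPM and Tsc2 at 91.3, 86.04 and 88.88 CPM. The transcription factor genes Foxo1 and Foxo3, whose products AKT inactivates, were lowest at 10.2 ± 2.17 and 11.0 ± 1.27 CPM (SD, n = 3). In the RAS and MAPK branch, 8 of 9 genes were in the table and 6 were called. The kinase gene Map2k2 had 118, 109 and 107 CPM, while Braf was lowest at 27.1 ± 4.76 CPM (SD, n = 3). The 3 genes for Igf2 mRNA-binding proteins, which bind and stabilise transcripts, were all called and highest in clone 3, as were 15.3% of all tested genes and 20 of the 42 called pathway genes. Igf2bp1 had 50.5, 58.0 and 64.0 CPM, Igf2bp2 had 84.6, 91.0 and 103 CPM, and Igf2bp3 had 51.8, 58.0 and 61.6 CPM.

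**Figure D5:**
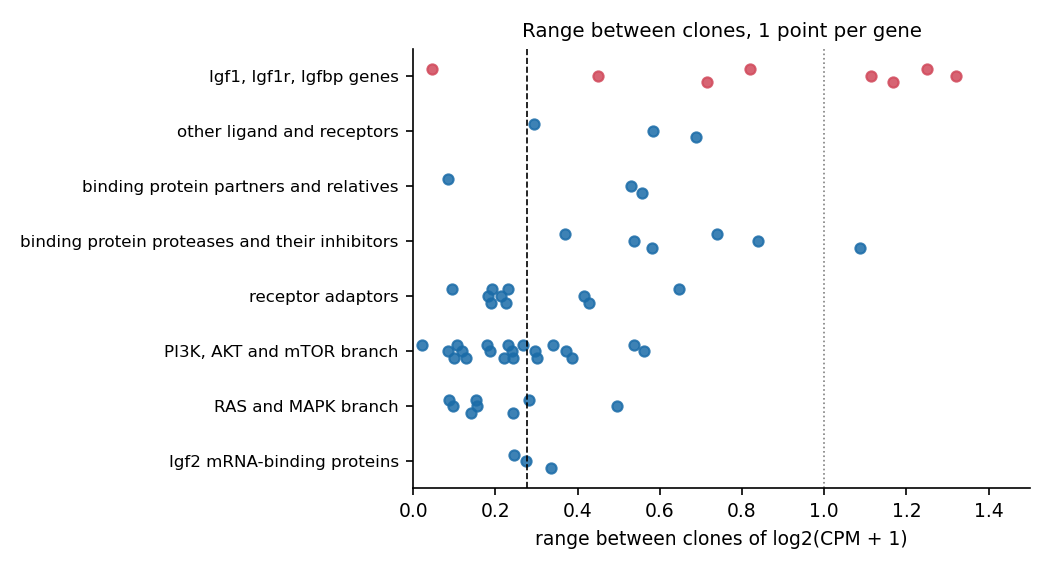
Range of log2(CPM + 1) between the 3 clones, 1 point per tested gene, by role, with the median of all tested genes (dashed) and a range of 1 (dotted). Points of the Igf group reach from 0.05 (Igf1r) to 1.32 (Igf1), and among the other roles a single point, Stc1, lies beyond 1.

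For the 4 genes with a range of at least 1, the genes nearest in pattern were sought among the 9693 genes that had 100 or more counts in each of the clones, by the Euclidean distance of the 3 deviations of log2(CPM + 1). Each pattern is made of 3 values from the same libraries, and the distances are a description. Nearest to Igf1 were Ctsc, which codes for the lysosomal protease cathepsin C, at a distance of 0.05, Ch25h, for cholesterol 25-hydroxylase, at 0.08, and Coch, for the matrix protein cochlin, at 0.12. Ch25h and Coch were also among the 3 nearest to Igfbp6, at 0.08 and 0.05, behind Pdgfb, which codes for a chain of platelet-derived growth factor, at 0.0073. Pdgfb had 260, 493 and 231 counts in clones 1, 2 and 3. Near to Igfbp4 were the homeobox gene Irx1 (0.02) and the semaphorin gene Sema7a (0.06). Igfbp2 had no gene as near, with the transcription factor gene Bhlhe40 at 0.18, Nrbp2 at 0.20 and Pnrc1 at 0.20. Bhlhe40 had 2562, 1538 and 1279 counts, highest in clone 1 and lowest in clone 3 as Igfbp2 was.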

How the data were processed

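PolyA+ RNA of 3 WT MEF clones was sequenced by the authors, who deposited raw counts per gene without normalization, 1 column per clone. Per the submitters' processing notes and the methods, SAMtools 0.1.16 and Bowtie 0.12.7 served the TopHat2 2.0.0 alignment, in which up to 2 mismatches and 5 hits per read were accepted, and HTSeq counted the reads. The notes name build mm9 and the methods mm10. The HTSeq version, annotation and strand setting are not given in the sources used here, so reads of Igfbp7 and the opposite gene Polr2b may be mixed where they overlap.

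CPM were computed from library sizes scaled by TMM in edgeR 4.0.16 (R 4.3.3). Genes that reached 10 counts in each of the clones were compared by Pearson's chi-square test (2 degrees of freedom) and by edgeR's goodness-of-fit test with trended dispersion, which sets a gene's spread against that of genes of similar level. Both used Benjamini-Hochberg adjustment over 12218 genes and a threshold of 0.05. With 1 library per clone, no quasi-likelihood test was possible, and p-values compare libraries, not conditions. Both tests were tried on simulated counts, the chi-square test with counting noise alone and the goodness-of-fit test with 1 dispersion for all genes. The simulations had no dispersion that follows the level, so they checked the code and not the calls reported here. Intervals and floors (3 counts) cover counting error only. Neighbouring levels in the per-kb order were called separate where clone ranges did not overlap. Gene models, coding sequences and translations were from GENCODE M21 on GRCm38, and promoters from RefSeq. Proteins were aligned with Biopython 1.88.

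The genes, the pathway and marker lists and the tests were chosen with earlier results of these data known. Named are the 9 genes, their neighbours in adjacent pairs, the highest and lowest 2 genes of each pathway list by mean CPM, pathway genes called with a 2-fold range, and the 3 genes nearest in pattern to each of the 9 that reached 100 counts in each of the clones and a 2-fold range. Some genes under this rule are not reported here. Hras, Adgre1 and Emr1 were listed and not analysed here. Alternatives were DESeq2 1.42.0 size factors, total counts, other count minimums, a common dispersion, the length of the transcript holding the longest coding sequence, no division by length and leaving out each clone.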

Additional observations from a re-analysis of the deposited data

How the results depend on the processing

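With DESeq2 size factors, total counts, no minimum or at least 50 counts, the chi-square test called 7094 to 7834 genes (7642 as reported), and with these settings or a common dispersion the goodness-of-fit test called 206 to 312 (256 as reported). Leaving out 1 clone left 3893 (without clone 1) to 6531 genes in the chi-square test and 5 (without clone 2) to 181 in the goodness-of-fit test. The Igfbp7 share of 87.6% became 77.0% without division by length and 86.4% to 89.0% with a clone left out. The order per kb kept all 8 genes in place with a clone left out or per kb of the transcript holding the longest coding sequence, and 4 of 8 without division by length. No result for the 9 genes reversed. In the chi-square test 4 results for single genes fell short of the threshold, each with a clone left out, and Igf1r passed it with total counts. In the goodness-of-fit test 12 did: those with a clone left out, Igfbp2, Igfbp4 and Igfbp6 under a common dispersion, and Igf1 at a minimum of 50 counts (adjusted p = 0.0606, edgeR). The cause of these changes was not tested. At these depths 1 count is 0.0396 to 0.0443 CPM, which limits what can be said of Igfbp1, Igfals, Insrr, Irs3 and Irs4. No paired analysis was possible because there is only 1 group.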

Other observations

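Markers of endothelium, epithelium, muscle and cartilage differed widely in level. Of 5 endothelial markers, Kdr alone had at least 10 counts in every clone (163, 214 and 314 counts in clones 1, 2 and 3), and Cdh5 had 4, 6 and 2. Of 4 epithelial markers, Krt18 alone did (69, 67 and 134 counts). Among muscle markers, Des, an intermediate filament gene of muscle and pericytes, had 1778, 701 and 2438 counts, while Myod1 had 0, 1 and 4. The cartilage collagen gene Col2a1 had 18263, 10979 and 18297 counts and Acan, for aggrecan, had 1120, 1027 and 1004. Each of the muscle markers was highest in clone 3. Counts in clones 1, 2 and 3 were 1, 0 and 10 for Myog, 4, 1 and 38 for Actc1 and 6, 0 and 47 for Myh3. The cartilage markers did not go together. Col2a1 was lowest in clone 2, whereas Sox9 (9.26, 12.8 and 10.7 CPM) and Acan (45.1, 45.5 and 39.8 CPM) were highest there. Col9a1 had 111, 54 and 8 counts. The markers in this paragraph were picked for mention after their values were seen, and no relation to the Igf genes was tested.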
